A study of Drosophila melanogaster with 23 samples.

Results

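Hearts of Drosophila melanogaster expressing an RNAi construct against Lamin C (LamC) were compared with hearts of the attp2 control strain at the same age, by bulk RNA sequencing of polyadenylated transcripts. The 10 libraries concerned are all those of these 2 groups, out of 23 in the series: 5 of hearts labelled attp2, LamC iR, at an age of 1 week, and 5 of hearts labelled attp2 at 1 week. The construct was under the Hand promoter, which is active in heart cells and pericardial nephrocytes, and 1 RNAi genotype stands for the treatment. The labels do not say whether the attp2 controls carried the driver, so the RNAi and any other difference in genotype between the groups cannot be told apart. A further 5 attp2 libraries at 5 weeks and 8 libraries of the control strain w1118, 4 at 5 weeks and 4 at 1 week, are used below only for comparison. Neither sex nor the number of hearts per library is stated in the labels. Nothing states that replicates came from separate sets of flies, and p-values then measure only how these libraries spread, which may be technical.

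Lamin C is the A-type lamin of the fly, an intermediate filament protein that lines the inner face of the nuclear envelope and is made in differentiated tissues such as muscle and heart. Lamins carry mechanical load at the nucleus and hold silent chromatin at its edge. The fly's B-type lamin is encoded by Lam. The adult heart is a tube of contractile cardiomyocytes sheathed in extracellular matrix, flanked by nephrocytes and bathed in haemolymph that carries haemocytes, the fly's blood cells. A dissected heart brings some of these neighbours with it, and in such bulk libraries fewer cells of a type and less RNA per cell cannot be told apart.

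Depth was 48.1 to 74.2 M counts (M, mega) per library in the RNAi group and 45.1 to 77.1 M in attp2. Levels are given as CPM (each gene's share of its library's counts, scaled to a common library size). Of 10 genes in the cardiomyocyte list, 9 had enough counts to be tested. Their summed level was 468.5 to 663.1 CPM in RNAi and 437.7 to 655.2 CPM in attp2 libraries (Hand averaged 333.1 ± 73.7 CPM in RNAi and 266.2 ± 68.7 CPM in attp2 hearts, SD, n = 5 each). Libraries numbered 3 stood apart in both groups. The summed level of 30 gut genes was 1451 CPM in RNAi library 3 and 14252 CPM in attp2 library 3, against 518.5 to 843.7 CPM in the other 8 libraries, and RNAi library 3 also held 1104 CPM of ovary transcripts against at most 368.1 CPM elsewhere. The LamC transcript did not check the label: it was 155, 199.5, 87.4, 172 and 132 CPM in the libraries labelled LamC RNAi and 186, 222, 138, 148 and 163 CPM in attp2, with overlapping groups (log2 fold change −0.20, 95% bounds −0.59 and 0.20, adjusted p = 0.628, exact two-sided permutation p = 0.405, where 0.00794 is the smallest that 5 against 5 allow). The permutation and the bounds ignore any pairing by replicate number, which is an assumption taken up below. With the number as a block the log2 fold change was −0.23 (adjusted p = 0.359), and LamC was lower in RNAi in 4 of 5 same-numbered pairs. LamC RNAi is used below as the name these libraries carry.

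Of 10044 genes tested, 242 passed the threshold of an adjusted p under 0.05, which is 2.41%. In RNAi hearts 87 genes were higher (0.866%) and 155 were lower (1.54%). The lower genes were more numerous but moved less: their median log2 fold change was −0.53, and 73 of 155 lay above −0.5, whereas the median of the higher genes was 0.74 and 25 of 87 lay under 0.5. Only 28 higher and 34 lower genes changed by at least 1 on the log2 scale. The 5 RNAi libraries lay apart from the 5 attp2 libraries, with no overlap, for 83 of the 87 higher and 136 of the 155 lower genes, against 218 of all genes tested on the higher side (2.17%) and 284 on the lower side (2.83%), together 5%.

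**Figure D1:**
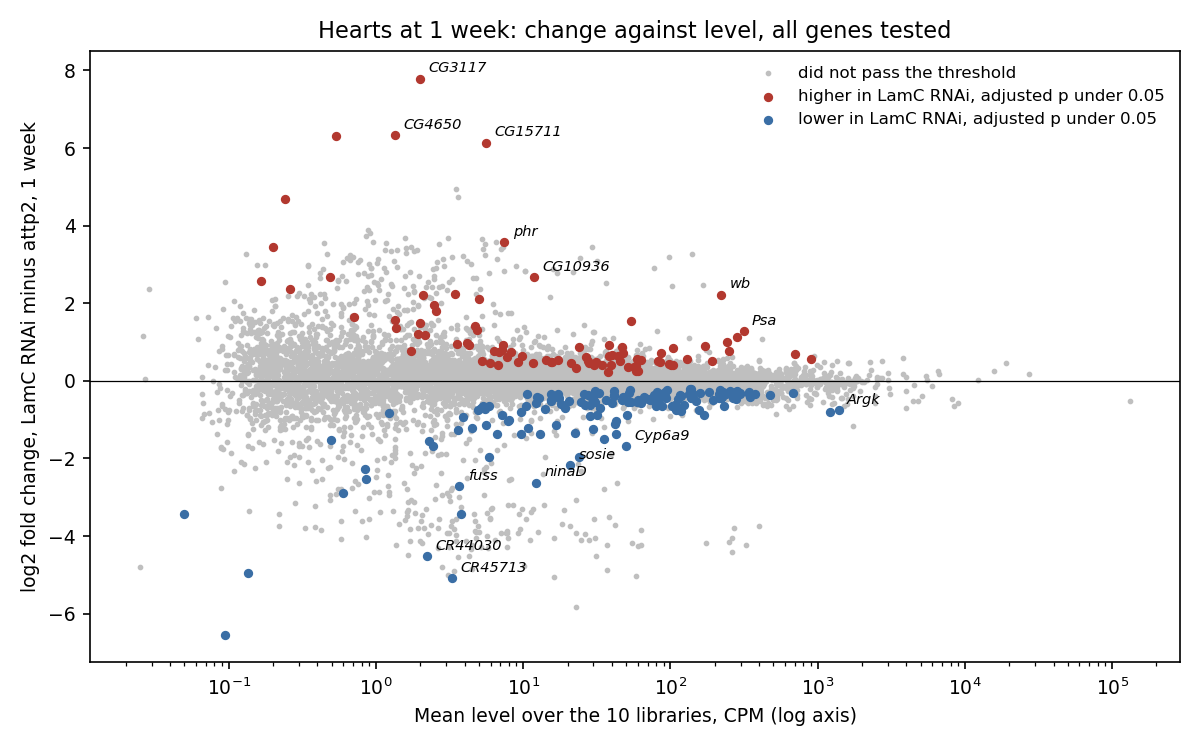
Log2 fold change of each tested gene (vertical axis, LamC RNAi minus attp2 at 1 week) against its mean level over the 10 libraries (horizontal log axis, CPM). Red points are the 87 genes higher and blue points the 155 genes lower in LamC RNAi at an adjusted p under 0.05; grey points did not pass. The largest changes lie at low levels, and most called genes lie within 1 of the zero line.

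These counts depend on the libraries and the fit. The labels give replicate numbers but no pairing, and the check given under processing does not settle whether equal numbers belong together. With the number as a block, fitted as an alternative, 38 genes were higher (0.401% of 9468 tested) and 37 lower (0.391%), together 0.792%. Of these, 30 and 33 also passed without it. The count of higher genes became 50, 47, 49 and 56 without attp2 library 2, 3, 4 or 5, 49 without RNAi library 5 and 148 without RNAi library 4. The count of lower genes became 96, 56, 58 and 82 without attp2 library 2, 3, 4 or 5, and 98, 89, 247 and 59 without RNAi library 1, 3, 4 or 5. The genes described below passed with and without the block unless a blocked adjusted p above 0.05 is given. Of 67 called genes followed through every alternative, the 21 that kept their call in all were phr, CG10936, Psa, NimC1, Sr-CI, wb, CG3104, CG3117, CG4650, CG31815, CG15711, Cyp6a9, CG9581, CG4461, CG4291, CR44030, fuss, CR45713, ninaD, Hsc70-1 and CG33301. Of 240 called genes with a position, 120 overlap another annotated gene, so that reads of the pair may have been split.

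The smallest adjusted p of all genes was that of phr, which encodes the photolyase that repairs ultraviolet-induced pyrimidine dimers (chromosome 2R, 7825289 to 7827319, BDGP6.54 annotation). It was 14.9, 12.8, 13.8, 13.1 and 13.9 CPM in RNAi hearts, against 1.17, 1.21, 1.18, 0.862 and 1.30 CPM in attp2. Every RNAi library lay about an order of magnitude above every attp2 library, and within each group the values were tight. The log2 fold change was 3.58 ± 0.16 (SE, adjusted p = 2.7e-08, blocked 3.0e-04). In attp2 at 5 weeks phr averaged 1.11 ± 0.239 CPM (SD, n = 5), close to the 1-week level. The gene overlaps Prosalpha1, a proteasome gene on the opposite strand that was not among the genes tested. How reads were shared between the overlapping genes is not known, so the phr level is uncertain to that extent. Of the 38 DNA replication and repair genes tested, phr was the only one to pass. The list's median was 0.49, with 34 of 38 positive, but it was 0.05, with 16 of 38 negative, without RNAi library 3, the library with ovary transcripts.

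CG10936, on 2R from 17604951 to 17639138, followed the same pattern. Its level was 23.7, 22.1, 14.48, 21.6 and 20.1 CPM in RNAi hearts and 2.36, 3.40, 3.72, 3.08 and 3.35 CPM in attp2 (log2 fold change 2.68 ± 0.22, adjusted p = 1.4e-05). The germline gene rhi overlaps it on the same strand and had means of 1.60 and 0.243 CPM in RNAi and attp2 hearts (log2 fold change 2.72, adjusted p = 0.139). Psa, the puromycin-sensitive aminopeptidase on 3L from 1502843 to 1523380, was 447, 447, 324, 639 and 375 CPM in RNAi hearts and 161, 176, 192, 190.3 and 193 CPM in attp2 (log2 fold change 1.29 ± 0.14, adjusted p = 4.6e-04). Its neighbour Iml1, a subunit of the GATOR1 complex that restrains TOR signalling, rose by 0.73 ± 0.10 (107.8 ± 12.1 CPM in RNAi and 64.8 ± 6.96 CPM in attp2 hearts, SD, n = 5 each, adjusted p = 0.00156). The gene hig, which encodes a secreted protein of the synaptic cleft, rose by 1.41 ± 0.23 at a low level (6.86 ± 1.34 CPM in RNAi and 2.57 ± 0.70 CPM in attp2 hearts, adjusted p = 0.00585). It overlaps the more abundant Cyp4p1, Cyp4p2 and Cyp4p3 on the opposite strand (33.03, 82.09 and 13.92 CPM in RNAi and 39.49, 68.28 and 11.11 CPM in attp2 hearts). Psa likewise overlaps cue (174.1 and 217.2 CPM). How reads were shared between these genes is not known. CG3104, of unstated function, rose by 2.10 ± 0.21, with 5.84 to 10.2 CPM in RNAi and 1.48 to 2.29 CPM in attp2 libraries (adjusted p = 1.6e-04).

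**Figure D2:**
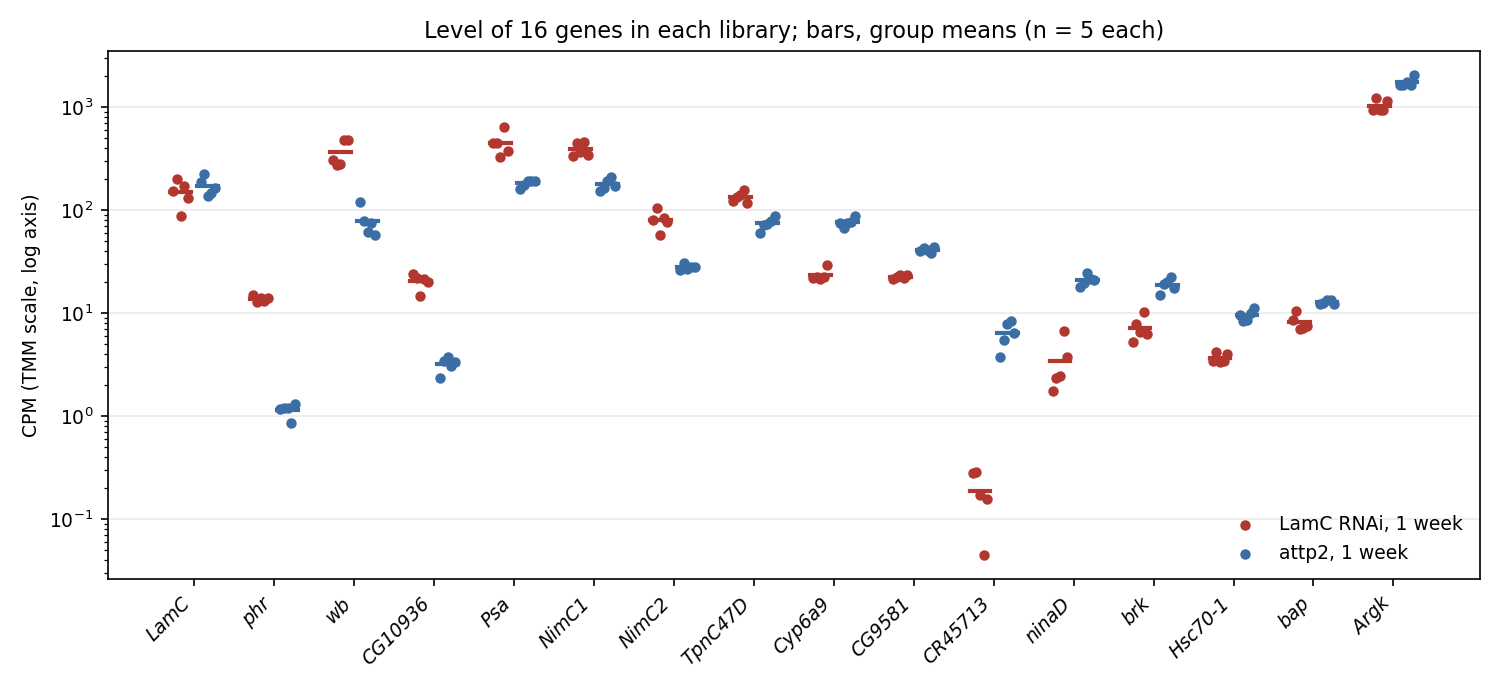
Level of 16 genes in each library (vertical log axis, CPM), with the 5 LamC RNAi libraries in red on the left of each pair and the 5 attp2 libraries at 1 week in blue; bars are group means. The LamC points overlap between groups, whereas the phr points lie at 12.8 to 14.9 CPM in LamC RNAi and 0.862 to 1.30 CPM in attp2; Cyp6a9 and CR45713 lie lower in LamC RNAi in every library.

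A few of the largest fold changes belonged to genes that were at or near 0 in attp2. CG3117 had 0.986, 3.61, 6.18, 4.99 and 3.97 CPM in RNAi hearts, while the attp2 libraries together held 4 counts, with 3 of 5 libraries at 0. The counts gave a ratio of 259.1, with a 95% counting interval of 100.9 to 952.6. CG4650 had 1.48 to 3.58 CPM in RNAi hearts and 8 counts in all attp2 libraries (ratio 90.6, interval 45.8 to 210.6), and CG31815 0.383 to 1.94 CPM and 3 counts (ratio 90.3, interval 30.6 to 440.3). These intervals cover counting error only. CG15711 was 19.1, 5.19, 7.20, 15.4 and 8.16 CPM in RNAi hearts and at most 0.210 CPM in attp2 (log2 fold change 6.14 ± 0.83, adjusted p = 0.00162). CG31815 lies inside CG42389, whose level was 205.6 CPM in RNAi and 200.1 CPM in attp2 hearts. CG3117 and CG3104 are neighbours on 2L. The remaining genes of the 12 largest rises lost their call with the block: CG10073 (blocked adjusted p = 0.0792), the non-coding CR43264 and CR44065 (blocked adjusted p = 0.0917 and 0.0646) and sced (blocked adjusted p = 0.0926), where RNAi library 3 had 15.7 CPM and the other RNAi libraries 2.91 to 3.45 CPM.

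Several receptor genes known from haemocytes were higher, of which NimC2 and lectin-28C stand in no list and were chosen after their values were seen. NimC1, a phagocytosis receptor of plasmatocytes, was 333, 453, 363, 454 and 340.5 CPM in RNAi hearts and 153, 165, 189.7, 209 and 172 CPM in attp2. The groups did not overlap (log2 fold change 1.13 ± 0.14, adjusted p = 0.001). Its neighbour on 2L, NimC2, of the same Nimrod receptor family, was 80.8, 105, 57.1, 82.8 and 76.7 CPM in RNAi hearts and 26.2, 30.4, 26.96, 28.2 and 27.9 CPM in attp2 (log2 fold change 1.53 ± 0.25, adjusted p = 0.00643). The scavenger receptor gene Sr-CI rose by 0.99 ± 0.15 (321.7 ± 38.8 CPM in RNAi and 162.2 ± 28.8 CPM in attp2 hearts) and the C-type lectin gene lectin-28C by 0.76 ± 0.12 (adjusted p = 0.00384 and 0.00548). All 4 lay in every RNAi library above all 10 attp2 libraries of either age; over all genes, 1.49% had RNAi libraries outside these 10 on either side.

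Of 18 haemocyte marker genes tested, 2 passed, NimC1 and Sr-CI, both higher (11.1%, against 0.866% of all genes). With DESeq2, 5 of the 18 were higher and 0 lower. Of these 18, 17 had a positive log2 fold change, with a median of 0.32 against 0.03 over all genes tested. The summed level of the list was 9687 to 12107 CPM in RNAi and 7696 to 8978 CPM in attp2 libraries, without overlap. Hml, which encodes the clotting protein hemolectin and defines plasmatocytes, averaged 1863 CPM in RNAi and 1364 CPM in attp2 hearts (log2 fold change 0.45, adjusted p = 0.196). The receptor gene eater averaged 87.1 and 61.6 CPM, He 2.68 and 2.77 CPM, and the crystal cell gene PPO1 782.3 and 639.1 CPM in RNAi and attp2 hearts, and none of these passed. No marker of the list averaged 0 in either group. NimC4 passed only with the block (log2 fold change 1.40, adjusted p = 0.0363, against 1.44 and 0.0608 without it). The part of the marker level in the rise of the receptor genes was not tested.

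The matrix around the heart contributed wb and LanB2. The gene wb encodes a laminin alpha chain, on 2L from 14263027 to 14328262, and was 308, 277, 281, 481 and 476 CPM in RNAi hearts and 121, 78.3, 60.7, 74.2 and 57.7 CPM in attp2. The lowest RNAi library lay above the highest attp2 library by more than 100 CPM (log2 fold change 2.22 ± 0.36, adjusted p = 0.00585, blocked 0.0209). LanB2, the laminin gamma chain shared by both fly laminins, rose by 0.51 ± 0.09 (225.7 ± 31.1 CPM in RNAi and 158.5 ± 14.2 CPM in attp2 hearts, adjusted p = 0.0103). LanA, the other laminin alpha chain, was at 474.0 ± 95.6 and 323.6 ± 41.3 CPM and passed only with the block (blocked adjusted p = 0.0448, 0.0747 without it). The beta chain LanB1 (log2 fold change 0.46, adjusted p = 0.139), the collagen IV genes Col4a1 and vkg (0.48 and 0.51, adjusted p = 0.0958 and 0.0676) and the integrin beta gene mys (0.12, adjusted p = 0.743) did not pass. In all, 2 of 39 matrix and adhesion genes were higher (5.13%, against 0.866% of all genes) and 0 lower, with a median of 0.09 (0.03 without attp2 library 3 and 0.05 without RNAi library 2). With DESeq2, 6 of 40 matrix and adhesion genes were higher and 2 lower. The summed level was 12625 to 17462 CPM in RNAi and 10820 to 12277 CPM in attp2 libraries. Haemocytes also make laminins and collagen IV, and Col4a1 stands in both lists.

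Of the genes of contraction and heart identity, few passed. TpnC47D, a troponin C gene, was 121, 134, 139, 156 and 117 CPM in RNAi hearts and 59.3, 71.6, 73.5, 78.6 and 87.4 CPM in attp2, with no overlap (log2 fold change 0.85 ± 0.18, adjusted p = 0.0255). The call was lost without attp2 library 1, 2, 3 or 4 or RNAi library 3 (adjusted p up to 0.066 over all alternatives). It was the only one of 29 sarcomere genes to pass. Mhc, the muscle myosin heavy chain, averaged 2726 and 2604 CPM in RNAi and attp2 hearts (log2 fold change 0.07), and the list's median was 0.07. Of 42 ion channel and calcium handling genes, Shab, a delayed-rectifier potassium channel gene, was the only one to pass. It had 17.4 to 19.4 CPM in RNAi and 11.9 to 15.2 CPM in attp2 libraries (log2 fold change 0.49 ± 0.09, adjusted p = 0.0101, blocked 0.0665). With DESeq2, 2 of 32 sarcomere genes were higher and 0 lower, and 2 of 42 ion channel and calcium handling genes were higher and 3 lower.

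Of 21 cardiac transcription factor genes, 2 were lower (9.52%, against 1.54% of all genes). They were the neighbours tin (tinman) and bap (bagpipe) on 3R, homeobox genes that specify the heart and the visceral muscle in the embryo. The level of tin was 3.36, 5.33, 3.37, 3.95 and 3.83 CPM in RNAi hearts and 5.32, 6.23, 5.79, 7.29 and 7.55 CPM in attp2, where RNAi library 2 just overlapped attp2 library 1 (log2 fold change −0.70 ± 0.16, adjusted p = 0.0374, blocked 0.0956). The level of bap was 8.49, 10.5, 7.03, 7.17 and 7.51 CPM in RNAi hearts and 12.3, 12.4, 13.5, 13.3 and 12.3 CPM in attp2 (log2 fold change −0.65 ± 0.12, adjusted p = 0.0103, blocked 0.0714). Neither kept its call with the block, and tin also lost it without attp2 library 2, 3, 4 or 5 or RNAi library 1, 3, 4 or 5 (adjusted p up to 0.152 over all alternatives). Hand, whose promoter drove the RNAi, had a log2 fold change of 0.32 (adjusted p = 0.431) and Mef2, a muscle regulator, of −0.00 (adjusted p = 0.995). The list's median was 0.18, but 0.07 without attp2 library 2, 0.09 without RNAi library 4 and −0.01 without RNAi library 5. With DESeq2, 3 of 26 genes of the list were lower and 0 higher.

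Of the 38 nuclear lamina and envelope genes tested, 0 passed, with a median of 0.11. At an unadjusted p under 0.05, 11 were higher and 0 lower, where 1932 of all 10044 genes tested lay in either direction. DESeq2 called 0 of the 38. Without RNAi library 3 the median was 0.02, with 17 of 38 negative against 7 of 38 with it. Lam averaged 32.1 ± 9.22 CPM in RNAi and 25.3 ± 1.57 CPM in attp2 hearts (log2 fold change 0.34, adjusted p = 0.214), with 47.3 CPM in RNAi library 3 and at most 34.5 CPM in the other RNAi libraries. The LINC complex genes koi and klar, whose proteins tie the nucleus to the cytoskeleton, had log2 fold changes of 0.01 and 0.21. Of 30 chromatin silencing genes, 0 passed (median 0.11, 5 higher and 0 lower at an unadjusted p under 0.05), and DESeq2 called 2 higher. Their summed level was 1037 CPM in RNAi library 3 and 766.0 to 809.8 CPM in the other RNAi libraries, and without that library the median was 0.00, with 15 of 30 negative.

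Among the lower genes, the cytochrome P450 gene Cyp6a9 had the smallest adjusted p. It was 22.1, 22.3, 21.4, 22.5 and 29.5 CPM in RNAi hearts and 75.1, 67.3, 75.0, 76.1 and 87.3 CPM in attp2, a clear gap (log2 fold change −1.69 ± 0.09, adjusted p = 2.2e-07, blocked 3.4e-04). Cyp6a23 in the same cluster on 2R fell by 1.36 ± 0.32 (14.04 to 31.8 CPM in RNAi and 46.7 to 90.3 CPM in attp2 libraries, adjusted p = 0.0412), while its neighbour Cyp6a17 rose by 0.88 ± 0.16 (44.5 to 78.3 CPM in RNAi and 30.5 to 35.6 CPM in attp2 libraries, adjusted p = 0.0103, blocked 0.0646). These are paralogues, so reads may have been split between them and the values of each are uncertain. CG9581, on the X, was evenly lowered, at 21.3, 22.5, 23.5, 22.1 and 23.5 CPM in RNAi hearts and 40.5, 43.1, 40.9, 38.4 and 43.5 CPM in attp2 (log2 fold change −0.87 ± 0.06, adjusted p = 1.3e-06). It overlaps CG9577 on the opposite strand, which had means of 119.3 and 166.5 CPM in RNAi and attp2 hearts (log2 fold change −0.48, adjusted p = 0.0699). How reads were shared between CG9581 and CG9577 is not known. CG4461, a gene of the small heat shock protein family, fell by 0.88 ± 0.11 (adjusted p = 8.6e-04), CG2818 by 0.54 ± 0.07 (adjusted p = 0.001) and CG4291 by 1.95 ± 0.20 (6.87 to 16.5 CPM in RNAi and 33.3 to 39.8 CPM in attp2 libraries, adjusted p = 1.8e-04).

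A pair of overlapping genes on chromosome 4 was lower in RNAi hearts. The antisense RNA CR44030 (959675 to 962692) was 0.0881, 0.141, 0.498, 0.177 and 0.0258 CPM there and 4.13, 4.19, 3.60, 4.29 and 4.94 CPM in attp2 (log2 fold change −4.51 ± 0.54, adjusted p = 7.6e-04). The gene fuss (962341 to 978489, opposite strand), which encodes a protein of the Ski and Sno family of transcriptional corepressors, was 0.669, 0.827, 2.45, 0.280 and 0.670 CPM in RNAi hearts and 7.07, 5.50, 5.91, 5.73 and 7.81 CPM in attp2 (log2 fold change −2.71 ± 0.43, adjusted p = 0.0056). Since no source used here states how strand was counted, reads of the overlapping pair cannot be told apart. The antisense RNA CR45713 on 2L (21232745 to 21234035) was 0.282, 0.282, 0.172, 0.0442 and 0.155 CPM in RNAi hearts and 3.77, 5.46, 7.85, 8.41 and 6.44 CPM in attp2 (log2 fold change −5.09 ± 0.41, adjusted p = 1.4e-05). CG14556 (−2.90) and CG31324 (−1.51, blocked adjusted p = 0.0646), which overlap on the same strand of 3R, both fell; CG14556 lost its call without attp2 library 3, 4 or 5 or any of RNAi libraries 1, 2, 3 and 5.

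Other lower genes encode receptors and regulators. The gene ninaD, a class B scavenger receptor for carotenoid uptake, was 1.74, 2.36, 2.47, 6.63 and 3.76 CPM in RNAi hearts and 17.8, 19.8, 24.6, 21.5 and 21.0 CPM in attp2 (log2 fold change −2.62 ± 0.32, adjusted p = 7.8e-04). The RNAi libraries all lay under 7 CPM and the attp2 libraries above 17 CPM. The rhodopsin gene ninaE fell by 2.54 ± 0.52 at a level under 3 CPM (blocked adjusted p = 0.0917). The gene brk (brinker), a repressor of Dpp target genes, fell by 1.38 ± 0.30, to 7.22 ± 1.94 CPM in RNAi hearts against 18.8 ± 2.90 CPM in attp2 (adjusted p = 0.0259, blocked 0.00387). Kr-h1, a transcription factor induced by juvenile hormone, fell by 1.35 ± 0.29 and GluClalpha, a glutamate-gated chloride channel gene, by 1.38 ± 0.22 (adjusted p = 0.0244 and 0.00517). Hsc70-1, of the Hsp70 chaperone family, fell to 3.68 ± 0.400 CPM in RNAi hearts against 9.55 ± 1.14 CPM in attp2 (log2 fold change −1.38 ± 0.18, adjusted p = 0.00156) and was the only one of 28 chaperone genes to pass. Of the remaining genes with the 12 largest falls, sosie (−2.18, not called without attp2 library 3 or 4 or RNAi library 5) and CG33301 (−1.97) kept their call with the block, and CG5964 (−3.44, blocked adjusted p = 0.0646) and the non-coding CR45400 (−2.26, blocked adjusted p = 0.148) did not.

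Genes of mitochondrial respiration were the most numerous named group among the lower genes, at small fold changes. Of 66 oxidative phosphorylation genes tested, 25 were lower (37.9%, against 1.54% of all genes) and 0 higher; all 66 had a negative log2 fold change, with a median of −0.23. The summed level of the list was 13096, 13617, 13151, 13531 and 12800.2 CPM in RNAi hearts and 14584, 15345, 16213, 16017 and 15218 CPM in attp2. The groups did not overlap, with means of 13239 ± 335.1 CPM in RNAi and 15475 ± 654.9 CPM in attp2 hearts (SD, n = 5 each). The calls covered all 4 genes of complex II, 5 of 8 of complex III, 11 of 32 of complex I, 4 of 12 of ATP synthase and 0 of 9 of complex IV, whose 9 genes were all negative (median −0.21).

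SdhA, the flavoprotein of succinate dehydrogenase, was 167, 192, 188, 188 and 180.5 CPM in RNAi hearts and 247, 251, 245, 226 and 264 CPM in attp2 (log2 fold change −0.43 ± 0.06, adjusted p = 0.00282, blocked 0.0646). UQCR-C1, a core subunit of complex III, was 398, 422, 416, 428 and 401 CPM in RNAi hearts and 509.9, 533, 564, 537 and 533 CPM in attp2 (log2 fold change −0.37 ± 0.05, adjusted p = 0.00296, blocked 0.0646). Cyt-c-p, the cytochrome c gene, fell by 0.45 ± 0.10 (adjusted p = 0.0254, blocked 0.124). In each of these 3 genes the RNAi libraries lay below the attp2 libraries. With the replicate block 0 of the 66 passed, with the same median of −0.23 and the smallest blocked adjusted p at 0.053. The count was 2 without the 4 libraries that stood apart on the first principal component of the 15-library table (RNAi library 3, attp2 1-week library 3 and attp2 5-week libraries 3 and 4), again with all 66 negative. DESeq2 called 42. The count was 14, 8, 9 and 14 without attp2 library 2, 3, 4 or 5, and 15, 15 and 9 without RNAi library 1, 3 or 5. The number of all genes called lower moved as well. It was 155 in the main fit, 37 with the block, 37 without the 4 libraries and 365 with DESeq2. Without attp2 library 2, 3, 4 or 5 it was 96, 56, 58 and 82, and without RNAi library 1, 3 or 5 it was 98, 89 and 59.

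Of 18 tricarboxylic acid cycle genes, 3 were lower (16.7%, against 1.54% of all genes) and 17 were negative (median −0.22). They were Acon, the mitochondrial aconitase, and the pyruvate dehydrogenase subunits muc and CG11876 (−0.31, −0.30 and −0.33), and the list's count was 0 with the block or without attp2 library 3 or 4 or RNAi library 5, 1 without attp2 library 5 or RNAi library 1 or 2, and 5 without RNAi library 4. Argk, the arginine kinase that buffers ATP in muscle, fell more: it was 932, 1218, 935, 931 and 1137 CPM in RNAi hearts and 1628, 1638, 1765, 1630.0 and 2061 CPM in attp2 (log2 fold change −0.76 ± 0.12, adjusted p = 0.00439, blocked 0.0212). Argk and the following genes were picked after their values were seen. The electron transfer flavoprotein genes wal and CG7834 (Etfb) fell by 0.24 and 0.37, the acyl-CoA dehydrogenase gene CG7461 (Acadvl) by 0.41, the leucine breakdown genes CG2118 (Mccc1) and CG3267 (Mccc2) by 0.65 and 0.49, the coenzyme Q synthesis genes CG7277 (Coq6) and CG30493 (Coq9) by 0.41 and 0.35 and the mitochondrial phosphate carrier gene CG9090 (Mpcp1) by 0.45. All 8 lost their call with the block.

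**Figure D3:**
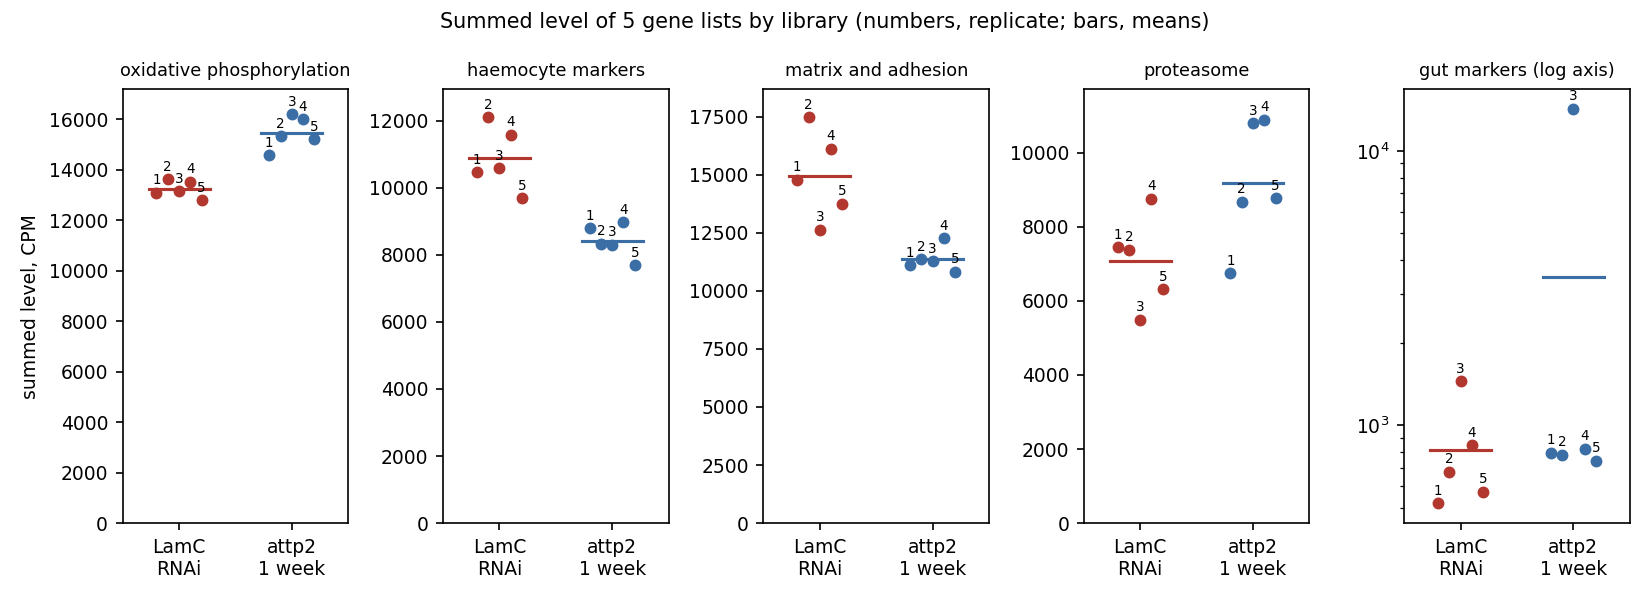
Summed level in CPM (vertical axes from 0, log axis for gut markers) of 5 gene lists in each library, LamC RNAi in red on the left and attp2 at 1 week in blue; numbers mark the replicate and bars the means. Oxidative phosphorylation sums lie at 12800.2 to 13617 CPM in LamC RNAi and 14584 to 16213 CPM in attp2, haemocyte and matrix sums lie higher in LamC RNAi without overlap, proteasome sums overlap, and attp2 library 3 stands apart in gut markers.

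Of 31 proteasome genes, 0 passed. All 31 were negative, their median of −0.37 was lower than that of oxidative phosphorylation, and 29 had an unadjusted p under 0.05. Over all 10044 genes tested, 1932 had an unadjusted p under 0.05 in either direction. DESeq2 called 1 of the 31. The summed level was 5489 to 8753 CPM in RNAi and 6749 to 10886 CPM in attp2 libraries, which overlap, and the median was −0.22 without the 4 libraries that stood apart. Of 80 cytosolic ribosomal protein genes 1 was lower, RpS15Ab (−0.36, blocked adjusted p = 0.10), with a list median of −0.01. Of 49 antioxidant and detoxification genes 1 was lower, the mitochondrial superoxide dismutase gene Sod2 (−0.30, blocked adjusted p = 0.0974). Of 37 lipid genes 1 was higher, the sterol-binding Npc2a (0.56, blocked adjusted p = 0.0646). No gene passed in the glycolysis (21 tested, 0 higher and 5 lower at an unadjusted p under 0.05), immune (56 tested, 4 and 3), autophagy (26 tested, 2 and 5), circadian clock (9 tested, 0 and 1), mitochondrial ribosome (72 tested, 0 and 10) and cytoskeleton (25 tested, 1 and 0) lists. In the same order, DESeq2 called 1, 4, 1, 0, 2 and 0 genes of these lists.

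**Figure D4:**
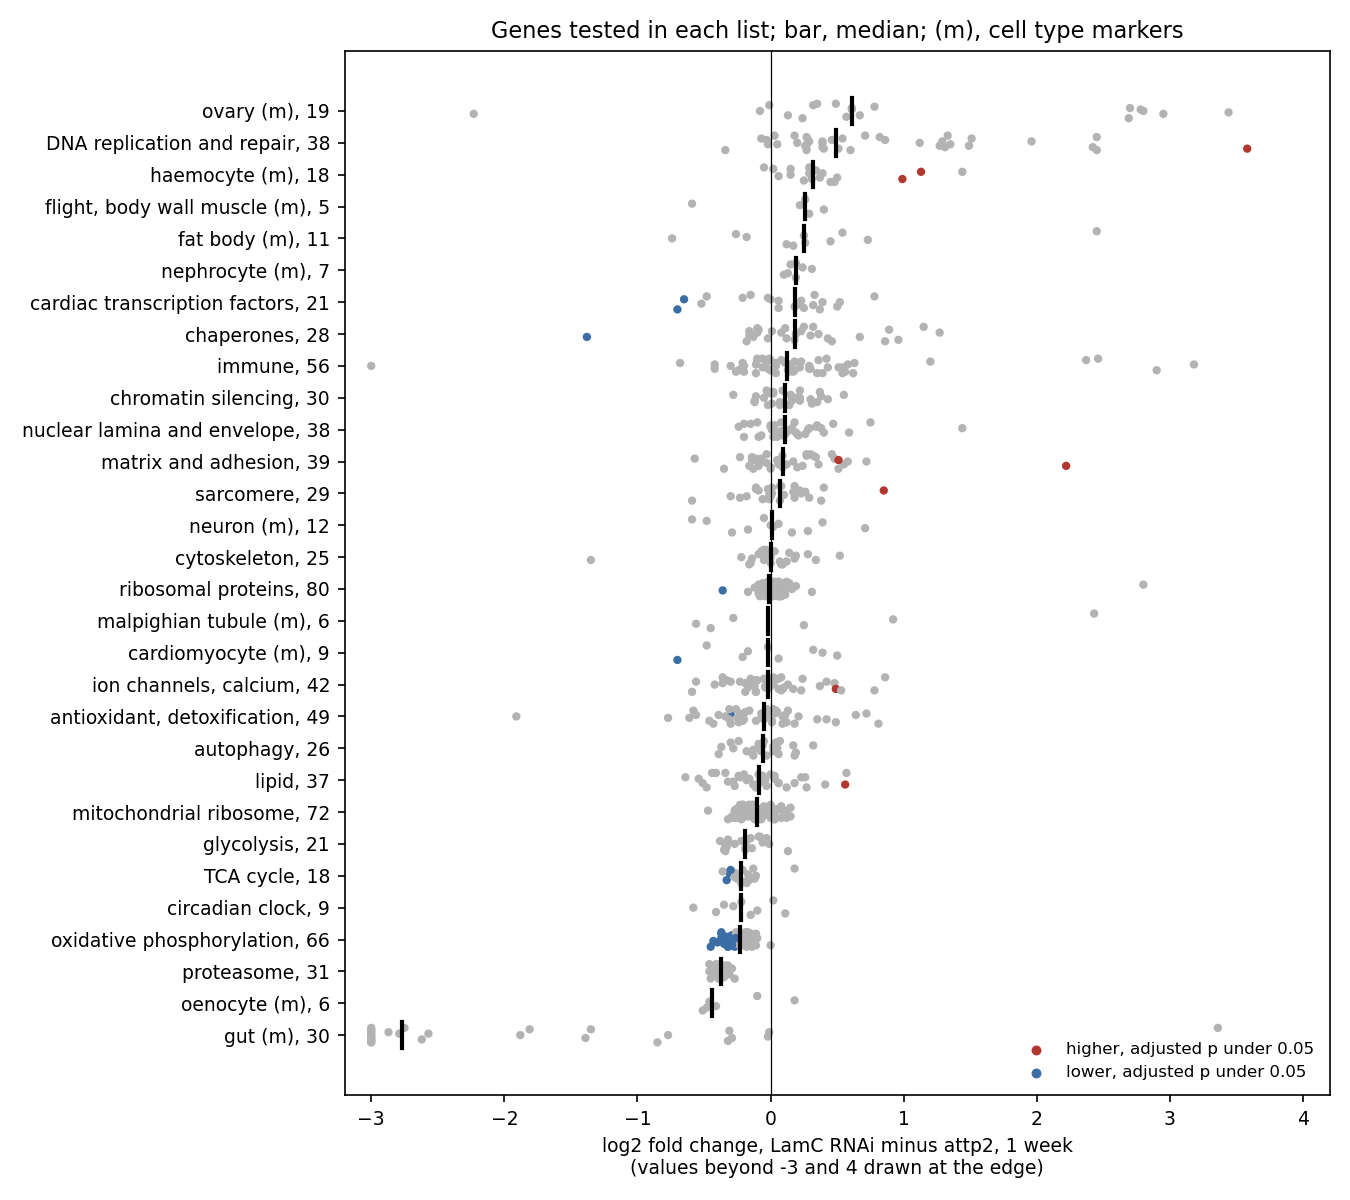
Log2 fold change (horizontal axis, LamC RNAi minus attp2 at 1 week) of every tested gene in each list with at least 5 tested genes, with the number tested beside the name, marker lists labelled (m) and black bars at the medians. Blue points gather in oxidative phosphorylation (25 of 66). The red points are 2 genes each in the matrix and haemocyte lists and single genes in a few others. Proteasome genes lie together at a median of −0.37 with 0 called.

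Of the marker lists for other tissues, 0 genes passed for nephrocytes (7 tested), fat body (11), oenocytes (6), flight and body wall muscle (5), neurons (12), glia (4), the male tract (2), ovary (19), gut (30) and Malpighian tubule (6). The male tract entry don was matched to svp, which also stands in the cardiomyocyte list. The male tract count is therefore no check of that tissue alone. At an unadjusted p under 0.05, 2 oenocyte genes were lower, 2 ovary genes, 1 fat body gene and 1 neuron gene were higher and 1 neuron gene was lower. This held for 1932 of all 10044 genes tested, in either direction. DESeq2 called 1 ovary gene, higher, and 0 in the other 9 lists. Cyp4g1, the most abundant oenocyte transcript, averaged 109479 CPM in RNAi and 155917 CPM in attp2 libraries (n = 5 each; log2 fold change −0.51, adjusted p = 0.248). The oenocyte sum was 79216 to 178660.1 CPM in RNAi and 117941 to 211953 CPM in attp2 libraries.

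Called genes lay on every chromosome arm. On chromosome 4, 5 of 85 tested genes were higher (5.88%, against 0.866% over all) and 3 lower (3.53%, against 1.54% over all). The lower genes there include the overlapping CR44030 and fuss, whose reads cannot be told apart. On 2L 32 of 1816 were higher (1.76%) and 38 lower (2.09%), and on 3R 8 of 2463 were higher (0.325%) and 27 lower (1.1%). Of 240 called genes with a position, 77 (32.1%) had another called gene within 50 kb, against 22.3% of the 9745 tested genes that were not called. Some neighbours moved together, such as NimC1, NimC2 and CG42711 on 2L (13930322 to 13983269), and tin and bap on 3R. Others moved apart, such as Cyp6a17 and Cyp6a23. On 3L, Psa and Iml1 rose (1.29 and 0.73) while CG32313 in the same cluster fell (−1.56). These counts are descriptive.

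The w1118 hearts at 1 week offer a second view of the attp2 levels, though they come from a table normalized separately, so strain and table cannot be told apart. For phr the 4 w1118 libraries had 0.844 to 1.65 CPM, near attp2 and far from the RNAi libraries. CG10936 (2.76 to 5.06 CPM), NimC1 (172.4 to 237.9 CPM), NimC2 (19.7 to 31.6 CPM) and Cyp6a9 (66.0 to 75.1 CPM) were also near attp2. For several other genes w1118 was near the RNAi libraries instead. The laminin gene wb had 350.6 to 511.3 CPM in w1118, Psa 354.9 to 579.1 CPM, CG15711 7.03 to 27.02 CPM and TpnC47D 127.5 to 160.3 CPM, and CG4291 had 5.39 to 9.24 CPM, CG33301 1.22 to 3.67 CPM, CG5964 0.0216 to 0.814 CPM and ninaD 4.13 to 9.03 CPM. Of the 80 higher genes tested in w1118, the w1118 mean lay nearer the RNAi mean on the log scale for 40 and nearer the attp2 mean for the other 40. Of 149 lower genes it lay nearer the RNAi mean for 59 and nearer the attp2 mean for 90.

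The study also set the RNAi beside ageing. The change with age in attp2 uses the same 1-week libraries as the RNAi comparison, so the values can only be placed side by side. For ninaD the log2 fold change was −2.62 with RNAi and −2.66 at 5 weeks against 1 week in attp2, for brk −1.38 and −1.62, for Hsc70-1 −1.38 and −1.50, for Argk −0.76 and −0.83 and for bap −0.65 and −0.77. TpnC47D went the other way with age (0.85 with RNAi and −1.64 with age), as did NimC1 (1.13 and −0.98), Sr-CI (0.99 and −0.62) and CG4291 (−1.95 with RNAi and 2.14 with age). The summed oxidative phosphorylation level was 13239 ± 335.1 CPM in RNAi hearts at 1 week, 11652 ± 382.7 CPM in attp2 at 5 weeks and 15475 ± 654.9 CPM in attp2 at 1 week.

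The w1118 ageing comparison shares no library with the RNAi comparison. Of 9631 genes tested there, 356 were lower (3.7%) and 502 higher (5.21%) at 5 weeks than at 1 week, together 8.91%. Among genes tested in both tables these shares were 3.75% and 5.26%. Of the 149 genes lower with RNAi that were tested there, 24 (16.1%) were also lower with age and 1 was higher. These 24 make up 15.5% of the RNAi-lower list and 6.74% of the 356 genes lower with age, and include ninaD (−5.31 with age), Hsc70-1 (−1.26), bap (−1.11), brk (−1.04), tin (−0.86), UQCR-C1 (−0.48) and Acon (−0.49). The median change with age of the 149 was −0.25. Of the 80 genes higher with RNAi, 6 (7.5%) were higher and 6 lower with age in w1118, with a median of 0.03. TpnC47D was among those lower with age (−1.43) and CG15711 among those higher (1.18). Of the 35 genes lower with the replicate block and tested in w1118, 6 (17.1%) were lower with age and 2 higher.

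The overlap was sensitive to single libraries. Without w1118 1-week library 1, 2 or 3 the count of 24 became 11, 9 and 16, and without 5-week library 1 or 2 it became 11 and 14. Without attp2 library 2, 3, 4 or 5 it became 14, 11, 11 and 9, and without RNAi library 1, 3 or 5 it became 12, 12 and 10. Over the alternatives that left out 1 RNAi or attp2 library the share lower with age was 9.17 to 20.8% of the RNAi-lower genes tested in w1118. With the w1118 libraries left out, the full count of genes lower with age moved alongside, to 159, 124, 172, 194 and 204 in place of 356, and that of genes higher with age to 273, 174, 260, 235 and 250 in place of 502.

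**Figure D5:**
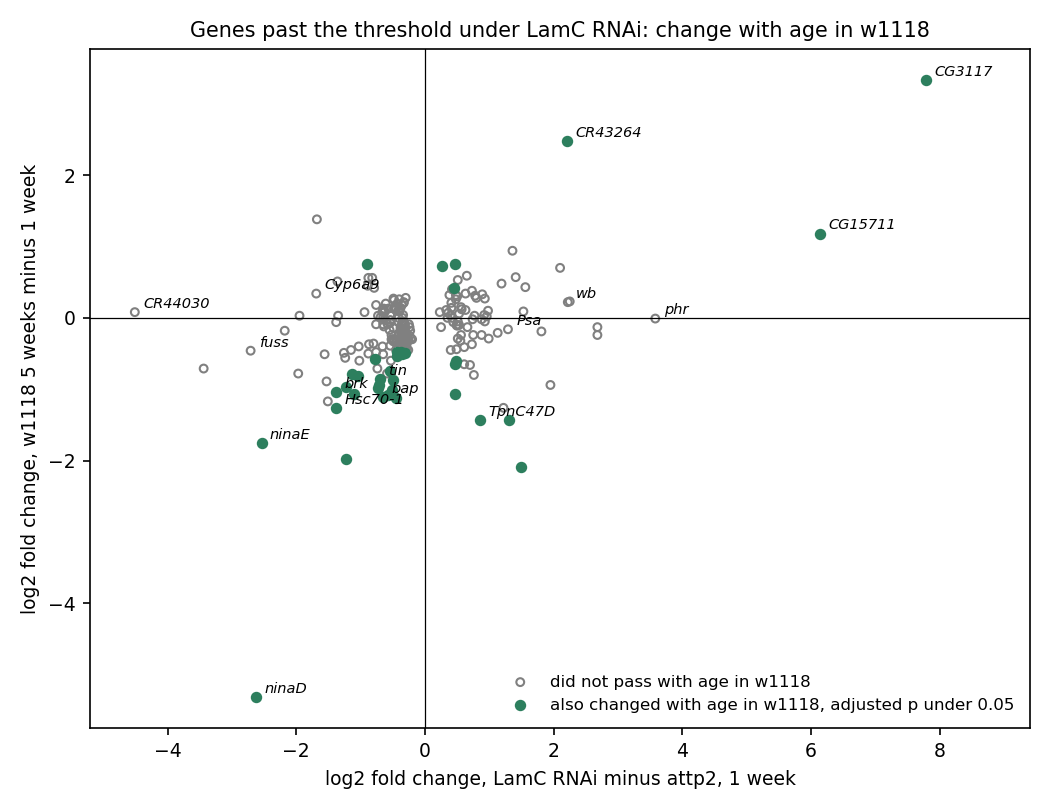
Genes past the threshold with LamC RNAi and tested in w1118: log2 fold change LamC RNAi minus attp2 at 1 week (horizontal axis) against log2 fold change 5 weeks minus 1 week in w1118 (vertical axis). Filled points also changed with age at an adjusted p under 0.05; 24 genes lie lower in both, ninaD farthest (−5.31), and phr (−0.01) and wb (0.22) lie near 0 with age.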

How the data were processed

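The submitters' processing notes name the dm6 build and the tools STAR, cutadapt and DESeq2. How reads were assigned to genes and strands, and with which annotation, is not stated there. The deposited files hold raw counts per gene symbol, with the 15 attp2 and LamC RNAi libraries in 1 table and the 8 w1118 libraries in another. The deposited log2 values equal log2(count/factor + 1) with 1 factor per library, as checked against the counts, and were not used further. Of 17104 symbols, 13264 matched a current and 3700 an older symbol of the BDGP6.54 annotation, which gave 1-based positions.

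Counts were tested with the two-sided quasi-likelihood test (edgeR 4.0.16, R 4.3.3, with TMM scaling and filterByExpr), with the 15 libraries of the attp2 table in 1 fit of 3 groups, and w1118 alone. Benjamini-Hochberg adjustment ran over all genes tested, and the threshold was 0.05. Adjusted p-values are from this test. SEs were obtained as log2 fold change over √F. The chi-square per gene between libraries of a group was at least 62.9, where sampling noise gives 1, so none was counted as a copy.

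Replicate numbers come from the labels. Deviations from the group means correlated at 0.15 to 0.47 in the 5 same-numbered pairs of RNAi and attp2 libraries and at −0.42 to 0.41 in the other 20. RNAi libraries 1 and 3 correlated best with the attp2 library of their number (0.40 and 0.47). RNAi library 2 did not (0.40, against 0.41 with attp2 library 1). Nor did RNAi library 4 (0.15, against 0.27 with attp2 library 5) or 5 (0.20, against 0.28 with attp2 library 4). Pairing by number is thus an assumption, and the replicate block was fitted on these 10 libraries as an alternative. Heat shock transcripts set libraries 1 and 2 apart in both groups but did not match single numbers. Hsp68 was 395 and 386 CPM in RNAi libraries 1 and 2, and 471 and 304 CPM in attp2 libraries 1 and 2. It was 252 CPM in RNAi library 4 against 63.9 CPM in attp2 library 4, and at most 173 CPM in the others.

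Named genes are LamC and Lam, the 12 highest and 12 lowest fold changes among called genes with a mean of at least 1 CPM, the 10 smallest adjusted p at a mean of at least 5 CPM, called members of the lists, and the 2 most abundant members of lists with none. Other genes named were chosen after their values were seen. The gene lists and the comparison were chosen with earlier results of these data known. Alternatives were DESeq2 1.42.0, its size factors, filters, the 10 libraries alone, the block and leaving out libraries.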

Additional observations from a re-analysis of the deposited data

Results flagged for a closer look

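In groups of 5, 21 of 210 combinations of a named gene and a group held a library far from the other 4, where chance alone gives about 1 in 20; 8 of them were in RNAi library 3. Among gut and Malpighian tubule genes, Jon65Aiv was 159 CPM in RNAi library 3 (0.504 to 2.83 in the others) and 3102 CPM in attp2 library 3 (0.556 to 9.57 in the others). Uro was 22.3 CPM in RNAi library 3 and 30.3 CPM in attp2 library 3, with at most 0.252 elsewhere, and NaPi-T was 8.90 and 10.2 CPM in the same libraries, with at most 1.24 elsewhere.

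Among genes past the threshold, RNAi library 3 had 15.7 CPM of sced (2.91 to 3.45 in the others), 2.14 CPM of CG5964 (at most 0.619), 2.45 CPM of fuss (at most 0.827) and 100.03 CPM of SdhC (at least 118). RNAi library 5 had 29.5 CPM of Cyp6a9 (21.4 to 22.5) and RNAi library 4 had 52.5 CPM of ND-13A (43.7 to 45.9). In attp2, library 4 had 0.862 CPM of phr (1.17 to 1.30) and 0.0699 CPM of CG3117 (at most 0.0137), library 5 had 0.0902 CPM of CG4650 (at most 0.0252), library 2 had 0.589 CPM of CR45400 (1.51 to 1.80) and library 1 had 134.5 CPM of SdhC (149.6 to 154.4). In all of these genes but ND-13A the groups did not overlap.

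Among genes that did not pass, Act87E was 210.8 CPM in RNAi library 4 (136.7 to 150.3 in the others), ref(2)P was 1330 CPM in RNAi library 3 (2201 to 2475) and 2383 CPM in attp2 library 1 (2817 to 2991), and Tps1 was 4139 CPM in attp2 library 1 (2889 to 3178).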

How the results depend on the processing

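Against 87 higher and 155 lower genes, DESeq2 called 281 and 365, the replicate block 38 and 37, the block without pair 3 34 and 31, the fit without the gut-transcript library (attp2 library 3) 47 and 56, the fit without the 4 libraries that stood apart, chosen after seeing the data, 38 and 37, and a minimum log2 fold change of 1 28 and 34. The 10 libraries alone called 72 lower genes. Leaving out each library in turn gave 47 to 148 higher and 56 to 247 lower genes, LamC at −0.33 to −0.06, and in w1118 with age 174 to 578 higher and 124 to 512 lower genes. DESeq2 size factors and either filter on low counts moved neither count by over 1.5 times. Of 67 named genes past the threshold, 21 kept their call in every alternative, and none of the 67 changed sign.

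Genes that changed sign had not passed. Leaving out each library in turn gave log2 fold changes of −8.54 to 3.34 for Jon65Aiv, −7.51 to 5.90 for Uro and −1.86 to 1.09 for NaPi-T, with 3.34, 5.90 and 1.09 without attp2 library 3, and ranges of −0.05 to 0.08 for Msp300, −0.03 to 0.06 for Cp190, −0.29 to 0.17 for Vmat, −0.36 to 0.12 for Rel and −0.14 to 0.51 for salm. Msp300 was also −0.00 with DESeq2 and with its size factors, Vmat −0.02 with the replicate block, and Cp190 −0.00 without the 4 libraries and −0.01 with the block without pair 3. The causes were not tested. Counting error was not small for genes near 0 CPM, such as CG3117, CG4650 and CG31815, whose attp2 libraries held 4, 8 and 3 counts in all.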
